A study of Mus musculus with 12 samples.

Results

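Mitochondrial carriers are the transport proteins of the inner mitochondrial membrane that belong to solute carrier family 25, together with the uncoupling proteins that share their fold. The members described here are the 48 genes measured by probe sets whose annotated symbol was Slc25a followed by a number, or Ucp1, Ucp2 or Ucp3. They were 48 of the 19505 gene symbols on the array, each measured by 1 probe set, so no choice between probe sets was needed. Ucp2 was not analysed here.

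Each carrier moves a set of metabolites across a membrane that is otherwise closed to them: ADP and ATP, phosphate, the acids of the Krebs cycle, amino acids, acylcarnitines, cofactors and iron. In hepatocytes they link the urea cycle, gluconeogenesis, fatty acid oxidation and lipid synthesis, whose enzymes are divided between mitochondria and cytosol. Uncoupling protein 1 instead lets protons flow back into the matrix, so that brown fat releases the energy of respiration as heat. Carriers are made in the cytosol and inserted into the inner membrane by a dedicated import pathway.

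Liver RNA was measured on 1 array per mouse in 12 adult male C57BL/6J mice aged 4 to 5 months, fed standard chow and housed at 23 °C. 6 had a WT dam (arrays 1 to 6) and 6 a dam without UCP1 (UCP1-KO dam, arrays 7 to 12). Sires were heterozygous in both crosses and the labels call every offspring heterozygous, so the groups differ by the mother's genotype and, with it, by the parent that passed on the null allele, which cannot be told apart. Litters are not given, so p-values measure only the mouse-to-mouse spread, and littermates may be among the mice. The liver identity was plain on every array: all 6 hepatocyte markers examined (Alb, Apoa1, Ttr, Tat, Cyp2e1 and Cps1) lay above background on all 12 arrays, with array means of 18.53 to 18.78. The comparison asks which carrier transcripts in the sons' livers differ with the dam's genotype.

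Values are log2 signals, on which 1 unit is a doubling, and differences are sons of UCP1-KO dams minus sons of WT dams. Signals of different probe sets depend on their probes, so they are set against the control probe sets of the same arrays and not used to rank one transcript above another. The 23 background controls averaged 5.00 ± 0.033 in sons of WT dams and 5.02 ± 0.011 in the other group (SD over the 6 arrays; p = 0.175 by an exact permutation test, two-sided). These controls differ widely among themselves, from 2.88 to 7.00 averaged over the arrays. The 5222 negative controls had a higher median, 6.39 ± 0.21 and 6.21 ± 0.14 (exact two-sided permutation p = 0.119), with WT-dam arrays 3 to 6 at 6.41 to 6.62 and arrays 1 and 2 at 6.14. A bulk sample cannot tell fewer cells of a type from less RNA per cell.

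Promoter sequences are shown for 5 members: the 3 whose groups did not overlap (Slc25a28, Slc25a42 and Slc25a22), 1 of the most variable members (Slc25a25) and Ucp1, which was below background. They are the bases upstream of an annotated start in RefSeq, build GRCm38.p6, written 5′ to 3′ on the gene's strand. Capitals mark matches, on either strand, to 6 motifs: the GC box GGGCGG, the CCAAT box CCAAT, the NRF-1 motif (GCGC, any base, TGCGC), the ERR site AAGGTCA, the TATA box TATAAA and the cAMP response element TGACGTCA. No motif overlapped another in these 5 windows.
Slc25a28, chr19:43675007-43675131, minus strand: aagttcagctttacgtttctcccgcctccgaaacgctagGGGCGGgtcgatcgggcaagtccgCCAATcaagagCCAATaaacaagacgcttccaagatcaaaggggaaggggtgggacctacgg
Slc25a42, chr8:70212282-70212531, minus strand: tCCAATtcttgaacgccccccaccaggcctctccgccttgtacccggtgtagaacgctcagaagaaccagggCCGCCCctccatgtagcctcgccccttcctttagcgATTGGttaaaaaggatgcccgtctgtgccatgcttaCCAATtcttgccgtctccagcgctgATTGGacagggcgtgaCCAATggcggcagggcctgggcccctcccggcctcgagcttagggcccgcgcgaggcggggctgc
Slc25a22, chr7:141437875-141438124, minus strand: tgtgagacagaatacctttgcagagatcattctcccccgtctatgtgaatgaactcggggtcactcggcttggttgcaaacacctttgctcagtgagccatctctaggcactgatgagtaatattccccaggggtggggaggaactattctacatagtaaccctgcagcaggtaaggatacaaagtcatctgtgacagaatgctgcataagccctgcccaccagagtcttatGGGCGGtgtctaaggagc
Slc25a25, chr2:32424067-32424316, minus strand: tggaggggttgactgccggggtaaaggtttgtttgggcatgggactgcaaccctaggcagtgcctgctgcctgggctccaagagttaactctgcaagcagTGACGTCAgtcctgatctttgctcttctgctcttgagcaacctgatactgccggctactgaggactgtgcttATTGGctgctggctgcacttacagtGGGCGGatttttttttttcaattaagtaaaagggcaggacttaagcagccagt
Ucp1, chr8:83290098-83290347, plus strand: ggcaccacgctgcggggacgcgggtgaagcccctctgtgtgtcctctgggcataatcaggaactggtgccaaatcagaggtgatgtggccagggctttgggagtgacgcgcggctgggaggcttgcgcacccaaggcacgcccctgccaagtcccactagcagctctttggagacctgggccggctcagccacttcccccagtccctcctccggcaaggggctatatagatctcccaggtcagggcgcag

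For Slc25a28 only the 125 bases outside its RefSeq gene span are printed, the part of its 250-base window farther from the annotated start. The nearer bases of that window are not printed, and the motif counts given for Slc25a28 leave them out. For Slc25a22 the outermost of 3 annotated starts was taken, and for Slc25a25 the 1 of 3 windows that holds a cAMP response element, which lies inside the gene span. The Slc25a42 window held 5 CCAAT boxes and 1 GC box, that of Slc25a28 2 CCAAT boxes and 1 GC box, and that of Slc25a22 1 GC box. The Ucp1 window held 0 matches to these letters. Of the 48 members, 38 had at least 1 window in the table, 48 windows in all. The GC box stood in the 250 upstream bases of 66.7% of these windows and of 32.7% of all 32851 windows, and the CCAAT box in 43.8% against 33.8%. The TATA box stood in 4.2% of the carriers' windows (Slc25a18 and Slc25a21) against 12.4%. NRF-1 motifs stood in 4.2% (Slc25a3 and Slc25a31) against 3.7%, ERR sites in 2.1% (Slc25a34) against 4.1% and cAMP response elements in 4.2% (Slc25a25 and Slc25a36) against 1.5%. The carriers' windows were also richer in G and C, with a median of 57.4% against 52.4%. A match is a run of letters, not a shown binding site.

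Most carriers were detected in liver. Of the 48 members, 37 lay above the mean of the background controls on all 12 arrays, 77.1% of the members, where 59.5% of all 22206 probe sets did so. A further 6 lay above it on some arrays only, and 5 on none. The stricter median of the negative controls was exceeded on all 12 arrays by 30 members (62.5%, against 42.8% of all probe sets), and the 95th percentile of the background controls by 30 (against 38.5%). The 95th percentile of the negative controls, 9.47 to 10.42, was exceeded on all 12 arrays by 19 members (39.6%, against 14.6% of all probe sets): Slc25a5, Slc25a23, Slc25a1, Slc25a39, Slc25a3, Slc25a47, Slc25a15, Slc25a10, Slc25a13, Slc25a22, Slc25a20, Slc25a11, Slc25a17, Slc25a46, Slc25a16, Slc25a51, Slc25a44, Slc25a42 and Slc25a12.

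The other 11 that exceeded the negative control median throughout were Slc25a25, Slc25a21, Slc25a38, Slc25a45, Slc25a30, Slc25a28, Slc25a37, Slc25a4, Slc25a32, Slc25a26 and Slc25a40. 7 members passed the background mean on all 12 arrays but the negative control median on fewer: Slc25a48 and Slc25a35 on 11 arrays each, Slc25a27 on 9, Slc25a36 on 8, Slc25a24 on 5, Slc25a33 on 3 and Slc25a29 on 2. Around the background mean itself lay Slc25a53 and Slc25a54 (above it on 11 arrays each), Slc25a41 (10), Slc25a14 (9), and Slc25a34 and Slc25a43 (7 each). The 3 members nearest above it on average were Slc25a43, at 0.027 log2 units over the array's background mean, Slc25a14 at 0.092 and Slc25a34 at 0.11. Below it on every array were Slc25a18 (-0.69), Slc25a2 (-0.76), Ucp1 (-0.83), Ucp3 (-1.06) and Slc25a31 (-1.13). A difference between groups in these 5 is no measure of a change in transcript.

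**Figure D1:**
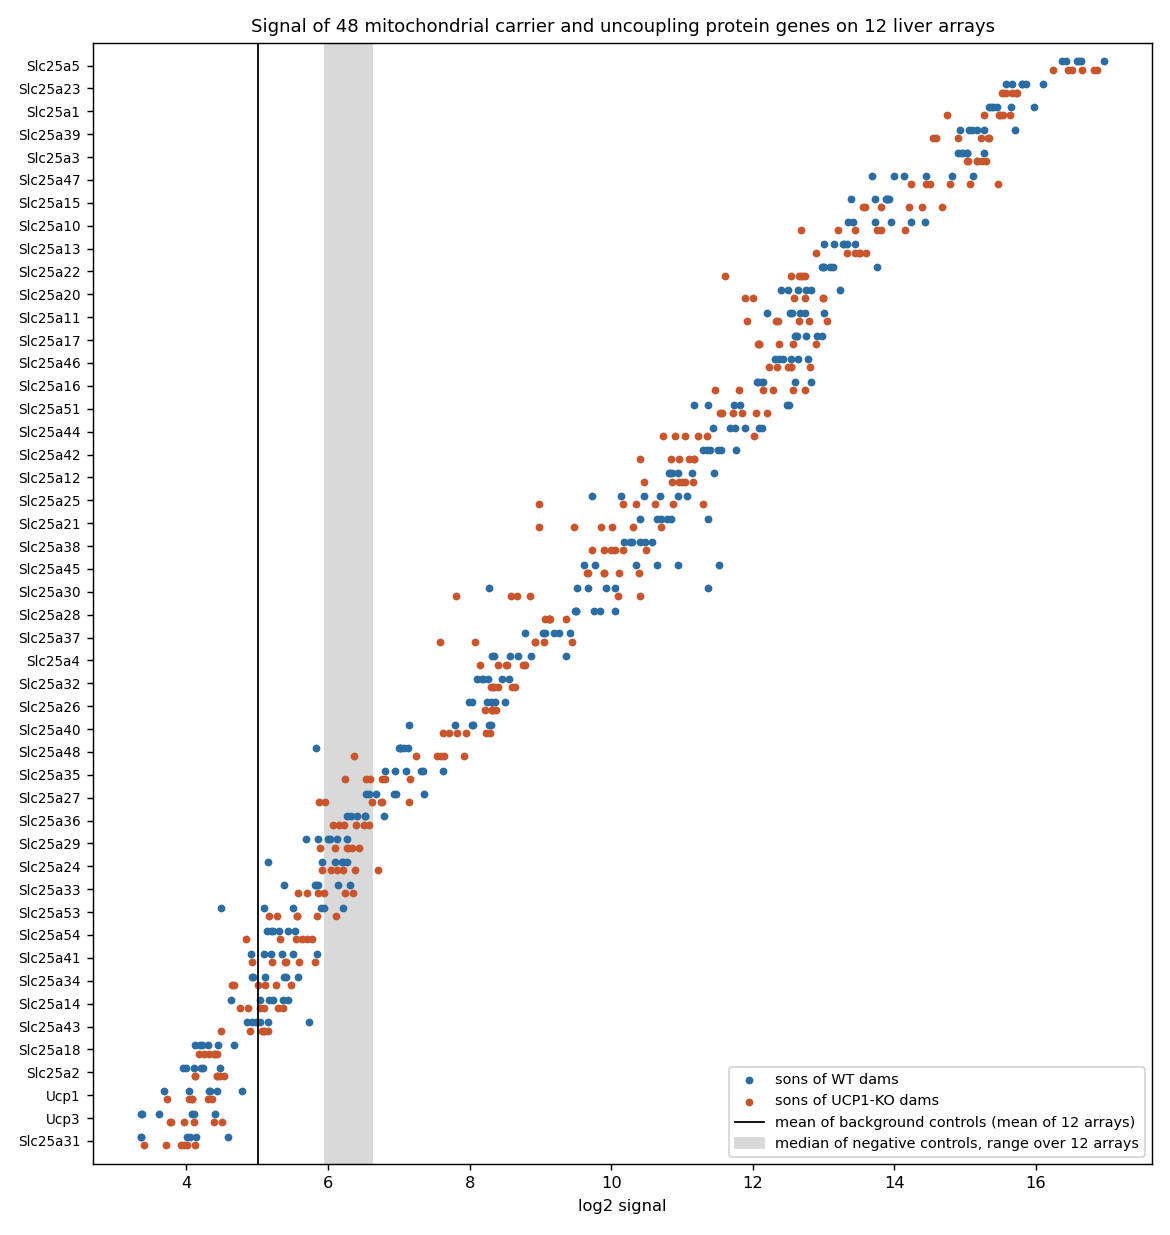
Log2 signal (horizontal axis) of the 48 carrier and uncoupling protein genes, ordered by their mean, with 1 point per array: blue for the 6 sons of WT dams and orange for the 6 sons of UCP1-KO dams. The black line is the mean of the background controls and the grey band the range of the negative control median, 5.96 to 6.62. Points run from below background (Slc25a31, Ucp3, Ucp1, Slc25a2 and Slc25a18 lie left of the line) to Slc25a5, at 16.36 to 16.97 and 16.25 to 16.87 in the 2 groups.

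No carrier passed the threshold for a difference by the dam's genotype after adjustment. By limma, with Benjamini-Hochberg adjustment over all 22206 probe sets, 0 of the 48 members had an adjusted p under 0.05 (lowest 0.111, highest 0.995), where 0.036% of all probe sets did (8; 0.0045% higher and 0.0315% lower). The variance trend with robust estimation also called 0 members, as did the other 21 alternative settings. At an unadjusted p under 0.05 there were 9 members, 18.8%, against 13.1% of all probe sets. Of these, 8 were lower in sons of UCP1-KO dams, 16.7% against 6% of all probe sets, and 1 was higher, 2.08% against 7.08%. With each array centred on its median the split was 9 lower and 0 higher, where 12.6% of all probe sets had such a p and 7.18% a lower one. Among the brighter 50% of probe sets, which hold 34 of the members, 8 members had such a p, all lower, where 17.2% of those probe sets had one in either direction and 9.81% a lower one. The groups did not overlap in 3 members, 6.25% of them, against 1.05% of all probe sets, and in all 3 the sons of UCP1-KO dams were lower (0.423% of all probe sets were so, and 0.626% the other way).

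Across the 48 members the median difference was -0.11, and 31 lay below 0 (64.6%), against a median of 0.034 and 43.2% below 0 (56.8% above) over all probe sets. The array's median deviation over the members was highest on WT-dam array 1, at 0.25, and from -0.082 to 0.12 on the other WT-dam arrays. On the arrays of the other group it ran from -0.095 to 0.033, so the groups overlapped. With 1 array left out at a time, 6 (without UCP1-KO-dam array 8 or 11) to 12 members (without array 12, with 10 lower and 2 higher) had an unadjusted p under 0.05. Of all probe sets, 11.1% had such a p without array 8, 12% without array 11 and 13% without array 12 (5.96% a lower one). Without WT-dam arrays 3 to 6, whose negative controls were bright, 4 members had an unadjusted p under 0.05 where 7.03% of all probe sets did. On the first principal component of all probe sets, which held 19.8% of the variance, UCP1-KO-dam arrays 8, 10 and 11 scored 26.3 to 37.5, arrays 7, 9 and 12 -2.45 to 1.71 and the WT-dam arrays -24.1 to 1.16. Arrays 8, 10 and 11 thus lay farthest from the WT-dam arrays, so leaving them out tends in itself to bring the groups closer. No WT-dam arrays were left out by their score on this component. Without arrays 8, 10 and 11, 6 members had an unadjusted p under 0.05, against 8.48% of all probe sets, and the median difference was -0.0094.

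**Figure D2:**
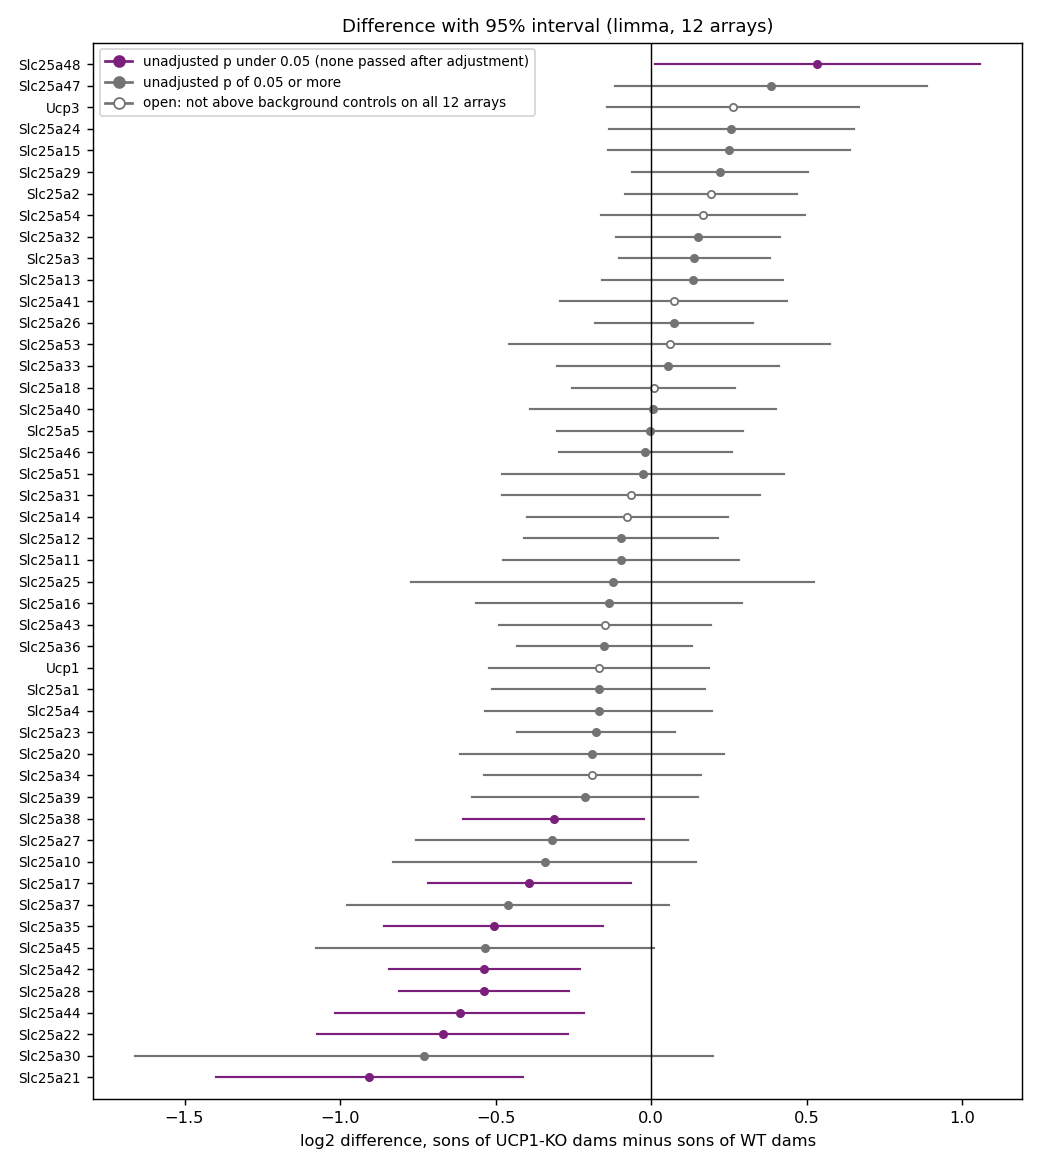
Log2 difference of each member, sons of UCP1-KO dams minus sons of WT dams, with its 95% interval from limma on all 12 arrays. Purple marks the 9 members with an unadjusted p under 0.05, none of which passed after adjustment, and open points the 11 members not above the background controls on all 12 arrays. Slc25a21 lies lowest at -0.91 and Slc25a48 highest at 0.53.

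Slc25a28 encodes mitoferrin 2, an iron importer of the inner membrane that serves heme and iron-sulfur cluster synthesis outside the red cell lineage. Its signal ran from 9.49 (median 9.64) to 10.06 in sons of WT dams and from 9.07 (median 9.12) to 9.37 in sons of UCP1-KO dams. All 6 arrays of the second group lay below all 6 of the first, and 5 of them fell within 9.07 to 9.14. The signal exceeded the negative control median on all 12 arrays, but the 95th percentile of the negative controls on only 1, WT-dam array 1. All 6 UCP1-KO-dam values thus lay within the upper range of the negative controls. The means were 9.70 ± 0.23 and 9.16 ± 0.11 (SD, n = 6 each), a difference of -0.54 (95% interval -0.81 to -0.27, limma adjusted p = 0.111), or 1.45-fold lower. Over all 22 alternative settings it lay between -0.58 and -0.47, among them -0.49 with the negative control median as a covariate, -0.52 without WT-dam arrays 3 to 6 and -0.49 without UCP1-KO-dam arrays 8, 10 and 11. Its paralogue Slc25a37, mitoferrin 1, the main iron importer of developing red cells, was at 8.79 (median 9.13) to 9.42 and at 7.59 (median 8.92) to 9.45, with a difference of -0.46 (interval -0.98 to 0.058, limma adjusted p = 0.442). Its low values sat on UCP1-KO-dam arrays 8 (7.59) and 11 (8.07), and without arrays 8, 10 and 11 the difference was 0.014. The erythroid markers, of which 2 of 7 were measured, had array means that ran from 9.75 to 10.00 in sons of WT dams and from 9.86 to 10.42 in the other group (Alas2 0.22, Slc4a1 0.37). Their part in the iron carriers' values was not tested.

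Slc25a21 carries 2-oxoadipate and 2-oxoglutarate, intermediates of lysine and tryptophan breakdown and of the Krebs cycle. It was at 10.41 (median 10.75) to 11.38 in sons of WT dams and at 8.98 (median 9.93) to 10.70 in sons of UCP1-KO dams. 5 of the 6 arrays of the second group lay below every array of the first, and UCP1-KO-dam array 12, at 10.70, lay inside its range. The means were 10.79 ± 0.32 and 9.89 ± 0.61 (SD, n = 6 each), a difference of -0.91 (interval -1.40 to -0.41, limma adjusted p = 0.130), 1.87-fold lower and the lowest difference among the 48. Without UCP1-KO-dam arrays 8, 10 and 11 it was -0.46.

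The other 3 di- and tricarboxylate carriers also had differences below 0 and did not pass. The citrate carrier Slc25a1, which exports citrate for fatty acid and sterol synthesis, was at 15.53 ± 0.25 and 15.36 ± 0.33 (difference -0.17, and -0.044 without UCP1-KO-dam array 8). For the dicarboxylate carrier Slc25a10, which exchanges malate and succinate for phosphate, the difference was -0.34 (interval -0.83 to 0.15), and -0.18 without UCP1-KO-dam array 8. UCP1-KO-dam array 8 was the lowest for both, at 14.74 and 12.69, and without arrays 8, 10 and 11 the differences were 0.030 and 0.054. The oxoglutarate carrier Slc25a11 of the malate-aspartate shuttle had -0.098 (interval -0.48 to 0.28).

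Slc25a42 imports coenzyme A into the matrix in exchange for adenine nucleotides. Its signal was 11.30 (median 11.45) to 11.77 in sons of WT dams and 10.41 (median 11.03) to 11.18 in the other group. No array of one group reached the other, and UCP1-KO-dam array 8 was the lowest of all. The means were 11.48 ± 0.17 and 10.94 ± 0.29 (SD, n = 6 each), a difference of -0.54 (interval -0.84 to -0.23, limma adjusted p = 0.141), which was -0.33 without UCP1-KO-dam arrays 8, 10 and 11. The peroxisomal carrier Slc25a17, which also takes coenzyme A and related cofactors, was at 12.59 (median 12.69) to 12.98 and at 12.08 (median 12.24) to 12.90, with a difference of -0.39 (interval -0.72 to -0.067, limma adjusted p = 0.284). Arrays 8, 10 and 11, at 12.08, 12.09 and 12.08, were its lowest values, while array 7 (12.90) lay among the sons of WT dams. Without these 3 arrays the difference was -0.13. The other 4 cofactor carriers measured had smaller differences: Slc25a16 -0.14, Slc25a51, the carrier for NAD, -0.026, Slc25a32, linked to folate and FAD, 0.15 and Slc25a26, which brings in the methyl donor S-adenosylmethionine, 0.071. Slc25a51, Slc25a32 and Slc25a26 changed sign without WT-dam arrays 3 to 6 (0.27, -0.064 and -0.089), and Slc25a16 without UCP1-KO-dam arrays 8, 10 and 11 (0.23).

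Slc25a22 carries glutamate into mitochondria with a proton. It was at 12.98 (median 13.05) to 13.75 in sons of WT dams and at 11.61 (median 12.67) to 12.74 in the other group. No array of one group reached the other: the lowest WT-dam array was at 12.98 and the highest UCP1-KO-dam array at 12.74. WT-dam array 3 (13.75) and UCP1-KO-dam array 8 (11.61) stood away from the rest of their groups. The means were 13.16 ± 0.30 and 12.49 ± 0.44 (SD, n = 6 each), a difference of -0.67 (interval -1.07 to -0.27, limma adjusted p = 0.157), 1.59-fold lower. Its paralogue Slc25a18 lay below background on all 12 arrays, at 4.32 and 4.33.

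Both aspartate-glutamate carriers, which move reducing equivalents into mitochondria and aspartate out to the urea cycle, were above background on all 12 arrays. Citrin, the liver form, encoded by Slc25a13, was at 13.01 (median 13.28) to 13.44 and at 12.89 (median 13.47) to 13.61 (difference 0.13, interval -0.16 to 0.42, and 0.23 without UCP1-KO-dam array 10). Aralar, encoded by Slc25a12, was at 11.01 ± 0.25 and 10.91 ± 0.24 (difference -0.097). The ranges of the groups overlapped for both.

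Slc25a44 imports branched-chain amino acids, and in brown fat supplies them as fuel for heat production. It was at 11.45 (median 11.82) to 12.13 in sons of WT dams and at 10.73 (median 11.13) to 12.02 in sons of UCP1-KO dams. 5 of the 6 UCP1-KO-dam arrays lay below every WT-dam array, while array 9, at 12.02, lay among the highest of them. The difference was -0.62 (interval -1.02 to -0.22, limma adjusted p = 0.185), and -0.29 without arrays 8, 10 and 11. Slc25a38, which brings glycine in for the first step of heme synthesis, was at 10.18 (median 10.35) to 10.57 and at 9.73 (median 10.02) to 10.49, a difference of -0.31 (interval -0.60 to -0.024, limma adjusted p = 0.338). 5 of its 6 UCP1-KO-dam arrays lay below the range of the other group, and array 10 inside it.

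The ornithine carrier Slc25a15 feeds the urea cycle by exchanging ornithine and citrulline. It was at 13.39 (median 13.89) to 13.93 in sons of WT dams and at 13.55 (median 14.01) to 14.67 in sons of UCP1-KO dams, with a difference of 0.25 (interval -0.14 to 0.64, limma adjusted p = 0.596). Values of 14.20, 14.39 and 14.67 on UCP1-KO-dam arrays 8, 10 and 11 exceeded every WT-dam array, and arrays 7, 9 and 12 lay within their range, so that without the 3 the difference was -0.14. These are the arrays on which Slc25a17 was lowest. The second ornithine carrier, Slc25a2, was below background on every array, and Slc25a29, which carries basic amino acids, was at 6.00 and 6.22, below the negative control median on most arrays.

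**Figure D3:**
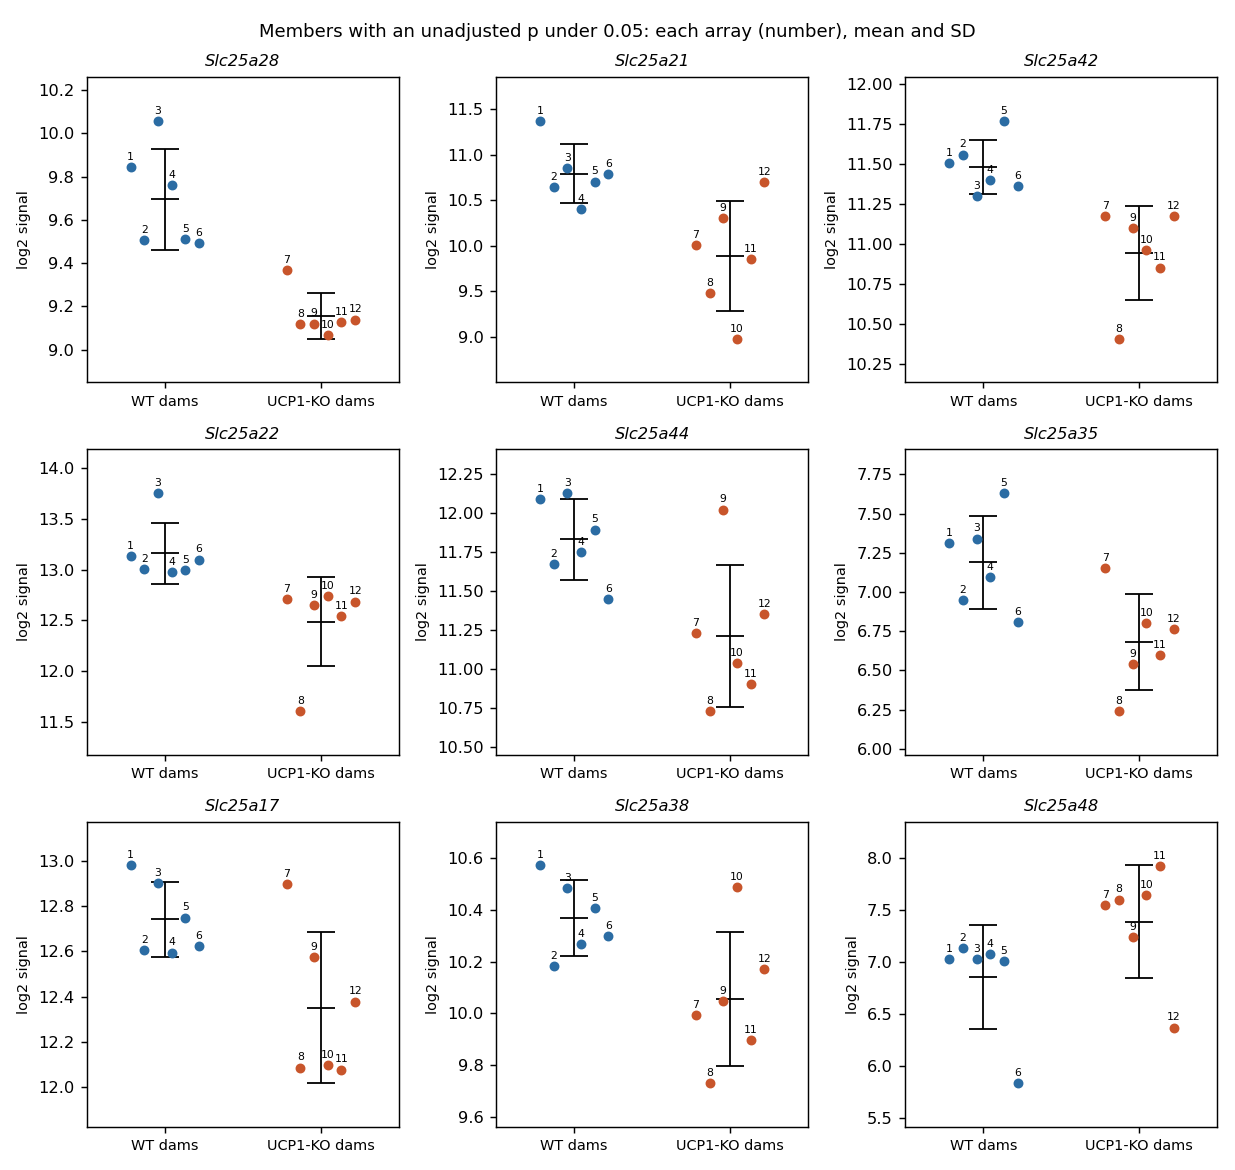
Log2 signal of the 9 members with an unadjusted p under 0.05, 1 panel each with its own vertical scale that does not start at 0. Points are arrays with their numbers, and the bars are the mean and SD of the 6 arrays of a group. The groups are apart for Slc25a28, Slc25a42 and Slc25a22, and overlap for the other 6; UCP1-KO-dam array 8 is the lowest point for Slc25a42, Slc25a22, Slc25a44, Slc25a35 and Slc25a38.

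Slc25a35 and Slc25a48 complete the 9. Slc25a35, a carrier whose substrate is not settled, was at 6.81 (median 7.20) to 7.63 in sons of WT dams and at 6.24 (median 6.68) to 7.15 in sons of UCP1-KO dams (difference -0.51, interval -0.86 to -0.16, limma adjusted p = 0.207). 5 of the 6 UCP1-KO-dam arrays lay below every WT-dam array. Slc25a48, which carries choline into mitochondria, was the 1 member of the 9 with a higher signal in sons of UCP1-KO dams, at 5.83 (median 7.02) to 7.13 and at 6.37 (median 7.57) to 7.92 (difference 0.53, interval 0.011 to 1.06, limma adjusted p = 0.372). Its lowest value in each group was on WT-dam array 6 (5.83) and UCP1-KO-dam array 12 (6.37), and the other 5 UCP1-KO-dam arrays lay above every WT-dam array. Without WT-dam array 6 the difference was 0.33, with UCP1-KO-dam array 12 left out 0.74, with WT-dam arrays 3 to 6 left out 0.31 and without UCP1-KO-dam arrays 8, 10 and 11 0.20. Both members exceeded the negative control median on 11 of the 12 arrays.

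**Figure D4:**
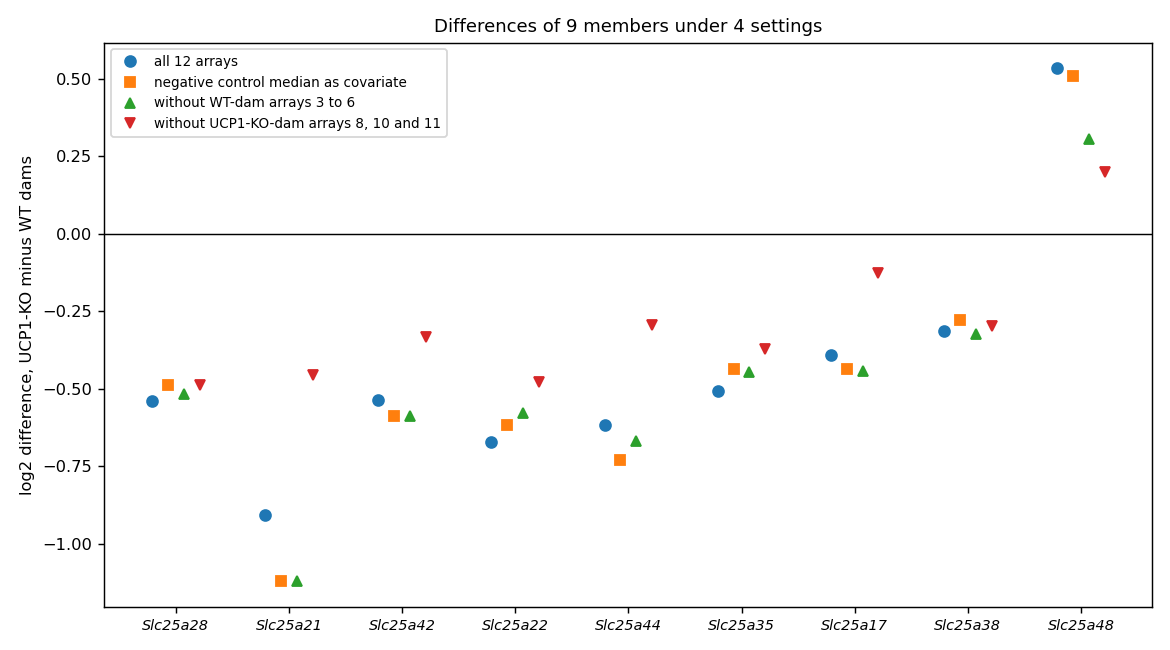
Log2 difference of the 9 members under 4 settings: all 12 arrays (circles), the negative control median as a covariate (squares), without WT-dam arrays 3 to 6 (upward triangles) and without UCP1-KO-dam arrays 8, 10 and 11 (downward triangles). Every point keeps its side of 0. Leaving out arrays 8, 10 and 11 moves Slc25a21 from -0.91 to -0.46 and Slc25a17 from -0.39 to -0.13, and Slc25a28 from -0.54 to -0.49.

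The carriers of adenine nucleotides and phosphate all had intervals that included 0. Slc25a5 encodes adenine nucleotide translocase 2, which exchanges matrix ATP for cytosolic ADP. It was at 16.36 (median 16.59) to 16.97 and at 16.25 (median 16.58) to 16.87, a difference of -0.0053 (interval -0.30 to 0.29). Slc25a3, the phosphate carrier that supplies ATP synthase, was at 14.90 (median 15.00) to 15.26 and at 15.03 (median 15.17) to 15.30 (difference 0.14, interval -0.10 to 0.38), with the smallest spread among the 48, a within-group SD of 0.12. Slc25a4, the heart and muscle form of the translocase, was above the negative control median on all 12 arrays, at 8.69 ± 0.39 and 8.52 ± 0.23 (difference -0.17, and -0.036 without WT-dam array 2). Slc25a31, the testis form, was below background throughout. The proteins of Slc25a4, Slc25a5 and Slc25a31 are closely alike, and how far the probes tell the 3 transcripts apart was not tested.

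Of the 4 carriers that exchange magnesium-bound ATP for phosphate, Slc25a23 was at 15.58 (median 15.80) to 16.10 and at 15.52 (median 15.62) to 15.74 (difference -0.18, interval -0.43 to 0.077). Slc25a24 had a difference of 0.26 (0.093 without WT-dam array 4) near the negative control median, and Slc25a41 one of 0.072 near the background mean. Slc25a25, a calcium-regulated form, differed widely between mice, as described below with the other variable members.

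The carnitine-acylcarnitine carrier Slc25a20, through which long-chain fatty acids enter for oxidation, was at 12.40 (median 12.70) to 13.23 and at 11.90 (median 12.67) to 13.00 (difference -0.19, interval -0.61 to 0.23). Arrays 10 and 11, at 12.00 and 11.90, lay below the range of the WT-dam arrays, and the difference was -0.062 without array 11 and 0.18 without arrays 8, 10 and 11. Of the glutathione carriers, Slc25a39 was at 14.93 (median 15.13) to 15.71 and at 14.55 (median 15.07) to 15.34 (difference -0.21, and -0.11 without WT-dam array 1), and Slc25a40 at 7.93 ± 0.43 and 7.94 ± 0.27. The pyrimidine nucleotide carriers Slc25a36 and Slc25a33 were dim, with differences of -0.15 and 0.054, the second of which was -0.059 with the negative control covariate. Slc25a46, a relative of the carriers in the outer membrane that takes part in mitochondrial fission and fusion, had a difference of -0.019 (interval -0.30 to 0.26). A p above the threshold does not show that the groups were alike.

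Of the uncoupling proteins, Ucp1, the heat-producing protein of brown fat, was at 3.69 (median 4.33) to 4.78 in sons of WT dams and at 3.73 (median 4.07) to 4.36 in the other group, under the mean of the background controls on all 12 arrays. Ucp3, mainly a muscle and brown fat form, was at 3.36 (median 3.85) to 4.40 and at 3.76 (median 4.03) to 4.50, also below it on all 12. The differences were -0.17 (interval -0.52 to 0.19) and 0.26 (interval -0.14 to 0.67). Markers of the tissues in which these genes are known to be abundant were mixed. Among 7 adipocyte markers Cidea, Plin1 and Lep were below background on all 12 arrays, Adipoq was above it on 1 and Retn on 8, while Fabp4 and Cox7a1 were above it on all 12, Fabp4 also above the negative control median on all 12. Among 5 skeletal muscle markers Myh4, Acta1 and Tnnt3 were below background on all 12 arrays, and Mb and Ckm above it on all 12. The array mean over the adipocyte markers ran from 5.02 to 5.42 in sons of WT dams and from 5.19 to 5.60 in sons of UCP1-KO dams, and over the muscle markers from 4.74 to 5.07 and from 4.83 to 5.28. By limma the 1 marker of the 2 lists that was above background and had an unadjusted p under 0.05 was Cox7a1 (0.36), and 0 of either list passed after adjustment. The part of these cell types in the values of Ucp1 and Ucp3 was not tested.

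3 carriers are named after the uncoupling proteins for their sequence. Slc25a14 lay at the background mean (5.14 and 5.07) and Slc25a27 near the negative control median (6.84 and 6.52). Slc25a30 exceeded the negative control median on all 12 arrays and the 95th percentile of the negative controls on 5. Its spread was the widest of the 48, with a within-group SD of 0.99. It was at 8.27 (median 9.80) to 11.36 in sons of WT dams and at 7.81 (median 8.76) to 10.41 in sons of UCP1-KO dams. The difference was -0.73 (interval -1.66 to 0.20, limma adjusted p = 0.498), -1.03 with WT-dam array 3 left out (limma adjusted p = 0.379), -0.42 with WT-dam array 6 left out and -0.10 with UCP1-KO-dam arrays 8, 10 and 11 left out. WT-dam array 6 (11.36) and UCP1-KO-dam array 12 (10.41) were the highest of their groups, the same 2 arrays that were lowest for Slc25a48.

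Slc25a25 was the next most variable, with a within-group SD of 0.67 against a median of 0.31 over the members and 0.28 over all probe sets. It ran from 9.73 (median 10.58) to 11.08 in sons of WT dams and from 8.98 (median 10.49) to 11.30 in sons of UCP1-KO dams, where array 12 was lowest and array 9 highest. The difference was -0.12 (interval -0.77 to 0.52), and 0.16 without array 12. Its window printed above, upstream of an inner start, was taken because it holds the cAMP response element in capitals. Slc25a36, the other member with this element, had a within-group SD of 0.20. Whether the element bears on the spread was not tested. Slc25a45 was at 9.62 (median 10.50) to 11.52 and at 9.65 (median 9.90) to 10.40 (difference -0.53, interval -1.08 to 0.0085, limma adjusted p = 0.390), with WT-dam array 1 the highest at 11.52 and a difference of -0.33 without it. Slc25a48 and Slc25a37, given above, complete the 5 members of largest spread.

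**Figure D5:**
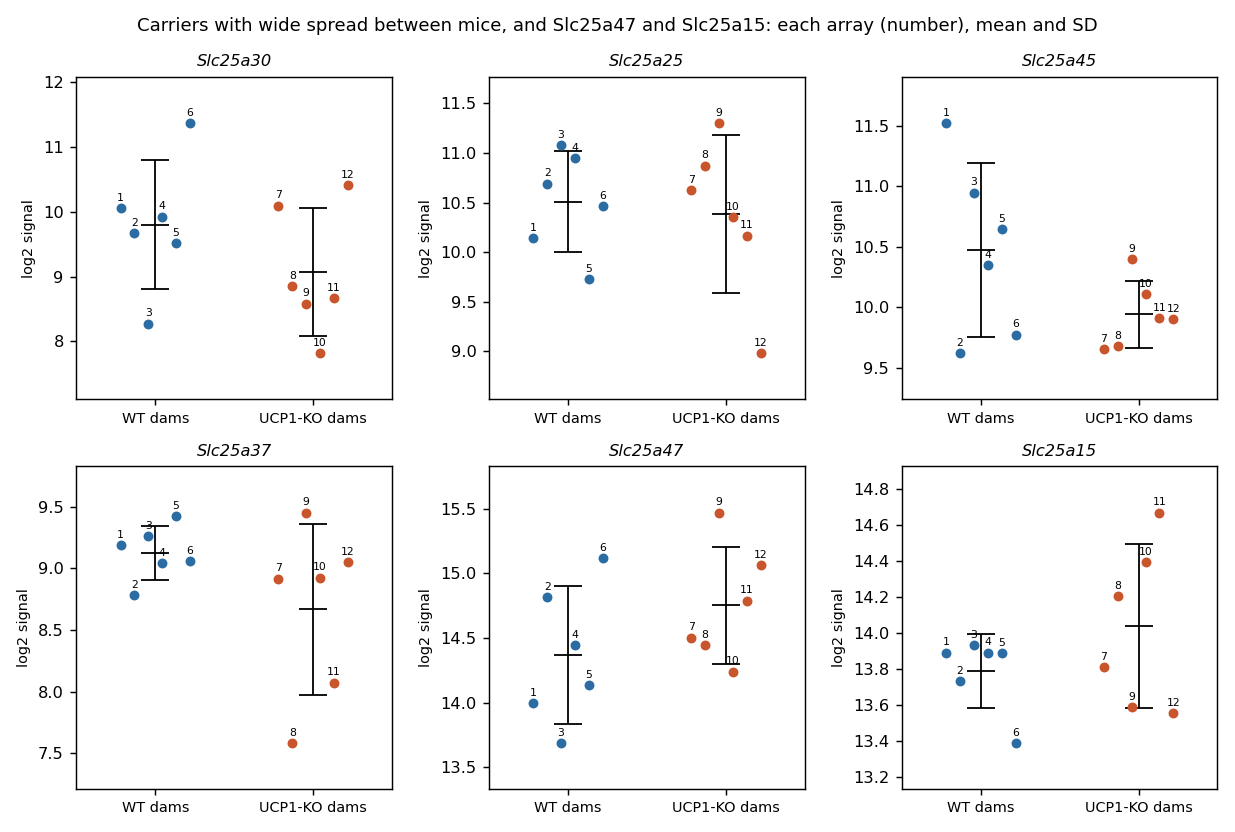
Log2 signal of the 4 members with the widest spread within groups apart from Slc25a48 (Slc25a30, Slc25a25, Slc25a45 and Slc25a37), and of Slc25a47 and Slc25a15, with a vertical scale of its own in each panel that does not start at 0. Points are arrays with their numbers, and the bars the mean and SD of 6 arrays. Slc25a30 runs from 7.81 on UCP1-KO-dam array 10 to 11.36 on WT-dam array 6, and Slc25a15 is highest on UCP1-KO-dam arrays 8, 10 and 11.

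Slc25a47, a carrier found mainly in liver, was at 13.69 (median 14.29) to 15.12 in sons of WT dams and at 14.24 (median 14.65) to 15.47 in sons of UCP1-KO dams. 5 of the 6 UCP1-KO-dam arrays lay within the range of the WT-dam arrays, and array 9, at 15.47, above it. Its difference of 0.38 (interval -0.12 to 0.89, limma adjusted p = 0.511) was the second highest of the 48. It kept its sign in all 22 alternative settings, some of which cannot change a difference, and lay between 0.17 and 0.65. The value of 0.65 was that without UCP1-KO-dam arrays 8, 10 and 11. The remaining carriers of unsettled role were at or near background: Slc25a53 at 5.53 and 5.58, Slc25a54 at 5.30 and 5.47, Slc25a34 at 5.22 and 5.03, and Slc25a43 at 5.11 and 4.97.

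Genes that work beside the carriers were examined in 3 lists. Of 21 other mitochondrial transport genes (among them Mpc1, Mtch1, Mtch2, Vdac1, Mcu and the sideroflexins) 18 were measured, 0 passed by limma after adjustment, 2 had a lower value at an unadjusted p under 0.05 and 0 a higher one, and the median difference was 0.028. The 2 were Sfxn5, a sideroflexin of the inner membrane (-0.50), and Abcb8, an ATP-driven transporter there (-0.34). All 13 genes of the carrier import pathway were measured, and again 0 passed by limma, 2 had a lower and 0 a higher value at an unadjusted p under 0.05, with a median of 0.045: Agk, a lipid kinase that is also a subunit of the TIM22 insertion complex (-0.34), and Timm10b, a small chaperone of that route (-0.31). Of 8 transcriptional regulators of mitochondrial genes 7 were measured, 0 passed by limma and 1, Gabpa, a subunit of nuclear respiratory factor 2, had an unadjusted p under 0.05 with 0.40, the median being 0.15. Beside these, 13.1% of all probe sets had an unadjusted p under 0.05 and their median was 0.034.

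Markers of other liver cell types were measured with the same arrays. The array mean over 8 Kupffer cell markers ran from 9.28 to 10.81 in sons of WT dams and from 9.42 to 10.15 in sons of UCP1-KO dams, over 6 stellate cell markers from 9.06 to 9.71 and from 9.33 to 9.68, and over 6 sinusoidal endothelial markers from 10.45 to 10.80 and from 10.61 to 10.85. Of the endothelial markers Lyve1 had a difference of 0.94 and Stab2 one of -0.74, neither of which passed (limma adjusted p = 0.191 and 0.175). The mean over 5 cholangiocyte markers ran from 5.71 to 6.08 and from 5.77 to 6.19, with Sox9 and Krt7 above background on all 12 arrays, Epcam on 3, Cftr on 2 and Krt19 on 1. Over the 4 lymphocyte markers measured it ran from 5.00 to 5.48 and from 5.15 to 5.51, with Cd79a and Cd3e above background on all 12 arrays, Ms4a1 on 7 and Cd3g on 0. The part of cell make-up in the carriers' values was not tested.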

How the data were processed

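The deposited values are log2 signals, 1 per probe set and array, which the authors made with RMA, per the submitters' processing notes, where Transcriptome Analysis Console is also named. Versions, build and RMA variant are not given in the sources used here. RMA subtracts background, makes arrays alike in distribution and compresses differences of dim probe sets. Of 28846 rows, 6640 controls were left out of the tests and 22206 probe sets kept with no filter. The platform annotation named 19572 of them, and all 48 members' Entrez identifiers were found in a RefSeq table.

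Each probe set was fitted in R 4.3.3 with limma 3.58.1 (lmFit, eBayes, two-sided), with dam genotype as the only term, and p-values were Benjamini-Hochberg adjusted over all 22206. The fit was tested on simulated data. Single values were compared by an exact permutation test (smallest p 0.00216). The 6 arrays per group limit the precision. No batch, litter or pairing is labelled.

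The members, lists and alternatives were chosen with earlier results of these data known. Full values are given for members with an unadjusted p under 0.05 (up to 10), the measured uncoupling proteins, the 5 of highest mean, the 5 of largest spread and the 3 nearest to background on each side. The 22 alternatives of the fit were 2 normalizations, 2 filters on dim signals, a variance trend, array weights, a control covariate, averaging per symbol, leaving out each array, and leaving out 2 sets of arrays; 5 further ones changed the background threshold or the probe set.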

Additional observations from a re-analysis of the deposited data

Results flagged for a closer look

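Single arrays stood away from the other 5 of their group by Dixon's criterion in 8 of the 96 sets of 6 arrays (48 members, 2 groups). The criterion's nominal rate of about 1 in 20 is for independent sets, while these 96 come from the same 12 arrays. The share over all probe sets was not counted, so no excess particular to the carriers can be read from the 8. In sons of WT dams, Slc25a3 was highest on array 1 (15.26), Slc25a22 on array 3 (13.75) and Slc25a43 on array 6 (5.73). In the same group Slc25a15 was lowest on array 6 (13.39), Slc25a48 on array 6 (5.83) and Slc25a24 on array 4 (5.15). In sons of UCP1-KO dams, Slc25a22 was lowest on array 8 (11.61) and Slc25a28 highest on array 7 (9.37). Of these members Slc25a22, Slc25a28 and Slc25a48 are among the 9 with an unadjusted p under 0.05. Without WT-dam array 6 the difference of Slc25a48 was 0.33, without UCP1-KO-dam array 8 that of Slc25a22 was -0.49, and without UCP1-KO-dam array 7 that of Slc25a28 was -0.58.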

How the results depend on the processing

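0 of the 48 members passed in any of the 22 alternatives of the limma fit, and 25 kept the sign of their difference in every one in which they were measured, among them the 9 with an unadjusted p under 0.05. Some of the 22 cannot change a difference. The 9 were picked by their p on these same arrays, so their kept sign is no separate support. The unadjusted p stayed under 0.05 in all 22 for Slc25a28, Slc25a21 and Slc25a42, in 21 for Slc25a22 and Slc25a44, 20 for Slc25a35, 17 for Slc25a17, 11 for Slc25a38 and 9 for Slc25a48. The lowest adjusted p of any member was 0.0657, for Slc25a28. The count of all probe sets called, 8 here, was 32 without the dimmer 50% of probe sets, 22 with a variance trend, 2 with the negative control covariate, 0 without WT-dam arrays 3 to 6, 0 without UCP1-KO-dam arrays 8, 10 and 11, and 1 (without UCP1-KO-dam array 8) to 112 (without WT-dam array 2) when 1 array was left out. Fewer arrays were fitted in the last 3. The median difference of the members moved from -0.11 to -0.0094 without UCP1-KO-dam arrays 8, 10 and 11, and lay from -0.17 to -0.075 in the others. Arrays 8, 10 and 11 were those farthest from the WT-dam arrays on the first principal component, so leaving them out tends in itself to bring the groups closer. The members above background on all 12 arrays numbered 37, 30 by the 95th percentile of the background controls or the median of the negative controls, and 19 by the 95th percentile of the negative controls. By the mean over the arrays 43 lay above the background mean. No paired analysis was possible because the labels give no pairing between the groups.

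Differences changed sign, with the cause not tested, as follows. With array weights they were -0.018 for Slc25a40, 0.012 for Slc25a46 and 0.0022 for Slc25a5. Centring each array gave -0.025 for Slc25a40 and -0.022 for Slc25a18. Quantile normalization gave 0.032 for Slc25a5 and -0.060 for Slc25a18. The covariate gave 0.20 for Slc25a51, -0.059 for Slc25a33, -0.12 for Slc25a18, 0.0037 for Ucp1 and 0.16 for Slc25a31. Without UCP1-KO-dam arrays 8, 10 and 11 the values were 0.14 for Slc25a5, 0.030 for Slc25a1, -0.14 for Slc25a15, 0.054 for Slc25a10, 0.18 for Slc25a20, 0.10 for Slc25a46, 0.23 for Slc25a16, 0.014 for Slc25a37 and -0.0011 for Slc25a41. Without WT-dam arrays 3 to 6 they were 0.27 for Slc25a51, -0.064 for Slc25a32, -0.089 for Slc25a26, -0.0048 for Slc25a24, -0.13 for Slc25a33, 0.0099 for Slc25a43, -0.23 for Slc25a18, 0.087 for Ucp1, -0.17 for Ucp3 and 0.15 for Slc25a31. Leaving out 1 array at a time gave -0.061 to 0.069 for Slc25a5, -0.083 to 0.035 for Slc25a46, -0.15 to 0.20 for Slc25a53, -0.015 to 0.18 for Slc25a41, -0.15 to 0.079 for Slc25a40, -0.16 to 0.11 for Slc25a51, -0.049 to 0.14 for Slc25a33, -0.18 to 0.070 for Slc25a31, -0.033 to 0.077 for Slc25a18, -0.20 to 0.021 for Slc25a11, -0.25 to 0.0037 for Slc25a16 and -0.31 to 0.16 for Slc25a25.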
